A study of Mus musculus with 2 samples.

Results

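The 37 genes encoded by mouse mitochondrial DNA were described in the midbrain of newborn mice, where they took 13.9% of all counts in replicate 1 and 14.8% in replicate 2. They were chosen by symbol, as every gene whose mouse symbol begins with mt-, and all 37 lie on chromosome M. They are 13 mRNAs, 2 rRNAs and 22 tRNAs, of 43346 genes in each library. The study holds 1 group of 2 total RNA libraries, each from a separately isolated pool of whole midbrain. The mice were healthy males and females of strain B6NTac;B6NCrl/Lap on postnatal day 0, with no treatment and no altered gene named in the labels. Replicate 1 came from 15 mice, and the number pooled for replicate 2 is not given. The RNA was over 200 nucleotides long and depleted of rRNA, and the stranded libraries were read from both ends of each fragment. With pools as samples, the values below measure the spread between pools of 1 strain at 1 age, not between animals. With 1 group there was no condition to compare, so no test was run.

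Mitochondrial DNA is a small circle, present in many copies per cell, that encodes core subunits of the respiratory chain and of ATP synthase together with the rRNAs and tRNAs needed to translate them. Each strand is transcribed as a long RNA, and removal of the tRNAs that sit between the other genes releases the rRNAs and mRNAs. Most genes are read from the heavy strand. The light strand gives a few tRNAs and 1 mRNA, mt-Nd6. All other subunits of these complexes are encoded in the nucleus, and neurons depend strongly on this pathway for ATP.

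Replicate 1 held 46685706 counts and replicate 2 held 72779229, of which spike-in RNAs and phage control took 1.21% and 1.06%. Of 8 midbrain markers, 8 were detected at 1 TPM (a length-adjusted share of transcripts) or more in both libraries, with a summed level of 107 TPM in replicate 1 and 91.3 TPM in replicate 2. Markers of neighbouring tissue differed between the pools. Choroid plexus markers summed to 17.9 and 170 TPM, with Ttr at 14.4 and 163 TPM, and 4 of the 6 were past 2-fold higher in replicate 2 on scaled counts. Hindbrain and spinal cord markers summed to 0.59 and 7.24 TPM, with 5 of 6 past 2-fold and Hoxd3, Hoxb8 and Hoxa3 at 0 in replicate 1. Skeletal muscle markers summed to 3.29 and 6.97 TPM, with 3 of 6 past 2-fold, and erythroid markers summed to 588 and 726 TPM, with 1 of 5 past it. Brown fat markers summed to 1.92 and 1.37 TPM, with Cox7a1 and Cox8b at 0 in both libraries. In bulk tissue, fewer cells of a type and less RNA per cell cannot be told apart.

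The sequences that bear on what could be counted are shown first, all from GENCODE M21 transcripts on GRCm38 and written 5′ to 3′. The first crosses the end of mt-Rnr2, the tRNA gene mt-Tl1 in capitals and the start of mt-Nd1 (chrM:2646-2780, + strand). It shows how little separates neighbouring genes: no base lies between these 3.
mt-Rnr2 end, mt-Tl1, mt-Nd1 start: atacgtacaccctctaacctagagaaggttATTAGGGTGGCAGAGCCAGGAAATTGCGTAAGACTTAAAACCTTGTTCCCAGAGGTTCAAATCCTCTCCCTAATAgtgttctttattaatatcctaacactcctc

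The next pair sets the first 60 bases of mt-Nd3 (chrM:9459-9518, + strand) beside those of its nuclear copy Gm28438 (chr1:24613060-24613119, − strand). The capital marks the only base that differs over 345 aligned bases, T3C, counted from 1 at the first base of mt-Nd3, with the base of the mitochondrial gene first.
mt-Nd3 start: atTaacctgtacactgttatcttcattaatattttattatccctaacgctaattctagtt
Gm28438 start: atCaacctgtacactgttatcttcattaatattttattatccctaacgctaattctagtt

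The third pair shows 60 bases of mt-Co1 (chrM:6390-6449, + strand) and of Gm29216 (chr1:24616129-24616188, − strand), a nuclear copy of its last 483 bases. Here the capital marks A1066T, counted from the first base of mt-Co1.
mt-Co1: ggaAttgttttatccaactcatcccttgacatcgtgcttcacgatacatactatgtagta
Gm29216: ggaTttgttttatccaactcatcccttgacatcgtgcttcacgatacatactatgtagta

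The last group shows genes that share bases with a neighbour on the same strand. All 204 bases of mt-Atp8 are given (chrM:7766-7969), with the 43 bases that are also the start of mt-Atp6 in capitals. The last 60 bases of mt-Nd4l are given (chrM:10114-10173), with the 7 bases shared with mt-Nd4 in capitals.
mt-Atp8: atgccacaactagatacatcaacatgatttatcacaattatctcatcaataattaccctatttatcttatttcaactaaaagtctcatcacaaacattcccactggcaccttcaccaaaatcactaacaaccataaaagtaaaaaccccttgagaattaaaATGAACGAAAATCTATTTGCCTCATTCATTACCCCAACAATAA
mt-Nd4l end: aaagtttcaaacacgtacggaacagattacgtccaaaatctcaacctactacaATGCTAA

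Most of the mitochondrial RNA counted in the midbrain was rRNA. The 37 genes held 6498926 counts in replicate 1 and 10790930 in replicate 2, or 14.4% ± 0.641 of all counts (SD, n = 2). The 2 rRNAs held 12.4% and 13.1% of all counts, which was 88.9% and 88.4% of the mitochondrial counts. The 13 mRNAs held 720088 and 1255151 counts, or 1.63% ± 0.129 of all counts (SD, n = 2). The groups of genes therefore kept the same order and close to the same proportions in both pools. On the TPM scale, which divides by the part of a gene's length where a fragment can start, the 37 genes held 7.56% in replicate 1 and 7.14% in replicate 2. That share rests on how very short nuclear RNAs are scaled: it was 17.4% with counts per annotated length, and 25.8% when genes under 400 bases outside chromosome M were left out of the total.

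The 2 rRNAs build the mitochondrial ribosome. The large-subunit RNA mt-Rnr2 (chrM:1094-2675) had 5214701 and 8644640 counts, or 52226 and 46801 TPM, and ranked 1st of all genes by count in both libraries. The small-subunit RNA mt-Rnr1 (chrM:70-1024) had 564137 and 891139 counts, or 10899 and 9308 TPM, and ranked 3rd by count in both. They come from the same stretch of the primary transcript, yet mt-Rnr2 exceeded mt-Rnr1 by 4.79-fold in replicate 1 and 5.03-fold in replicate 2, a log2 ratio of 2.30 ± 0.05 (SD, n = 2). Over the median of the 13 mRNAs its log2 ratio was 6.77, between 6.64 and 6.90 in single libraries, and 5.71 with the nuclear copies added to the mRNAs. That median counted mt-Atp8, whose TPM cannot be read as a level, as described below. Its TPM was the lowest of the 13 in replicate 1 and the highest in replicate 2. The difference between 6.64 and 6.90 therefore cannot be read as spread between pools. Over mRNAs of at least 500 bases without a nuclear copy, which left mt-Atp8 out, the log2 ratio was 6.85. Both rRNA levels are those left after rRNA depletion; the method of depletion is not given in the sources used here, and its part in the ratio was not tested.

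None of the 22 tRNAs had a count in either library. They are 59 to 75 bases long, 14 read from the heavy strand and 8 from the light strand, and each carries an amino acid to the mitochondrial ribosome. A count of 0 allows up to 3 counts by sampling, or 0.0643 CPM (counts rescaled to the same library total) in replicate 1 and 0.0412 CPM in replicate 2. The assay could not have counted them as annotated: they are shorter than a read and than the RNA kept for the libraries. Of 2271 annotated genes shorter than 1 read, mitochondrial or not, 0 had a count. The zeros therefore say nothing about tRNA levels in the tissue.

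The mRNAs of complex IV, chiefly mt-Co1, held most of the mitochondrial mRNA counts. This complex, cytochrome c oxidase, passes electrons to oxygen, and its 3 mitochondrial mRNAs held 75.1% and 70.9% of the mRNA counts, or 73.0% ± 2.96 (SD, n = 2). The 7 mRNAs of complex I, which takes electrons from NADH, held 19.4% and 22.5%. The 1 mRNA of complex III held 3.89% and 4.25%, and the 2 of ATP synthase, complex V, held 1.59% and 2.37%. Complex IV thus led in both libraries and complex I came next, with no overlap between libraries. Of the complex IV counts, mt-Co1 held 401473 of 540672 in replicate 1 and 753492 of 889929 in replicate 2. The shares of the complexes were not adjusted for gene length. The counts of nuclear copies, described below, change complex V most: with them added, it held 5.73% and 7.36%, and complex IV held 72.7% and 70.3%.

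**Figure D1:**
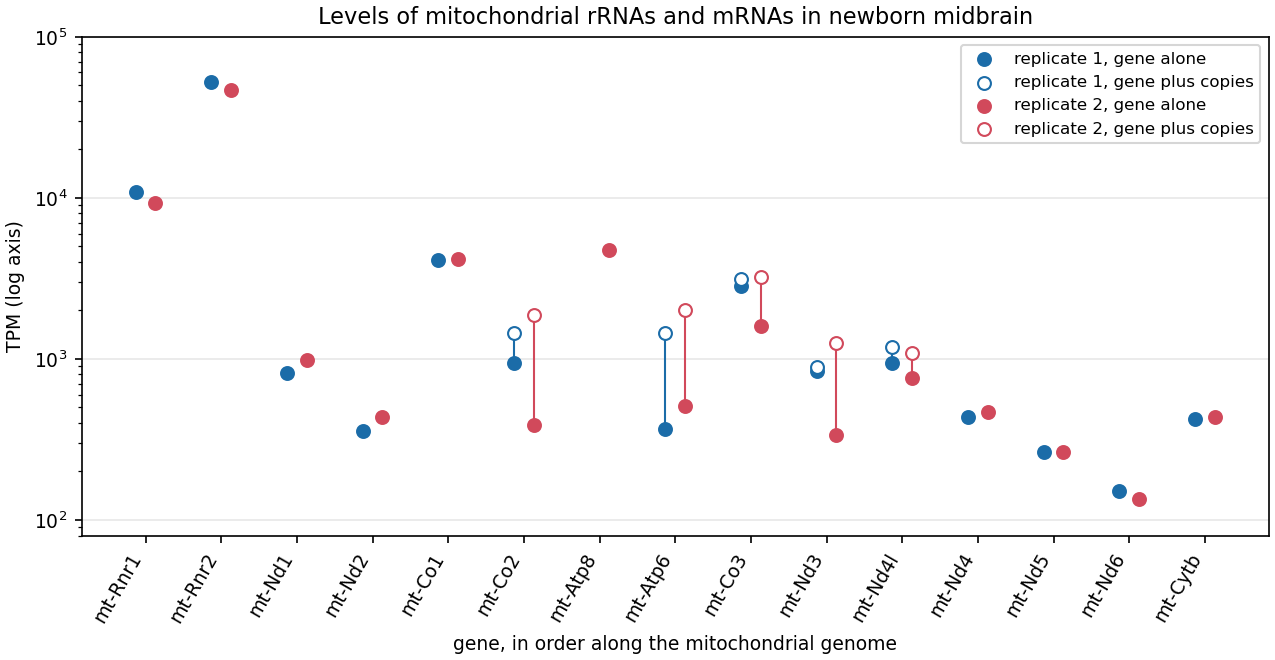
TPM of the 2 rRNAs and 13 mRNAs on a log axis, in the order of the genes along mitochondrial DNA, for replicate 1 (blue) and replicate 2 (red). Filled points are the gene alone and open points, joined by a line, the gene plus its nuclear copies; mt-Atp8 in replicate 1 has a TPM of 0 and is not drawn. Of the genes drawn in both libraries, the rRNAs and mt-Co1 stand highest and mt-Nd6 lowest. For mt-Co2, mt-Co3 and mt-Nd3 replicate 2 is the lower alone; with the copies, mt-Co3 is level and the other two are higher in replicate 2.

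In complex IV, mt-Co1 encodes the catalytic subunit, where oxygen is reduced. It had 401473 and 753492 counts, or 4138 and 4199 TPM, and ranked 5th of all genes by count in both libraries. The mRNA mt-Co2 encodes the subunit that receives electrons from cytochrome c, and it had 945 and 388 TPM. The mRNA mt-Co3, for a core subunit without a metal centre, had 2845 and 1598 TPM. By TPM the libraries matched for mt-Co1, which was 1.23-fold higher in replicate 2 on scaled counts, and lay far apart for mt-Co2 and mt-Co3, which have near-complete nuclear copies.

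In complex I, mt-Nd1 encodes a subunit at the quinone-binding site, and it had 820 and 981 TPM. The antiporter-like subunits mt-Nd2, mt-Nd4 and mt-Nd5 take part in proton pumping. Of these, mt-Nd2 had 357 and 435 TPM, mt-Nd4 had 436 and 469 TPM, and mt-Nd5 had 262.3 and 263.2 TPM. In both libraries mt-Nd4 was the highest of these and mt-Nd5 the lowest. By TPM mt-Nd5 was nearly the same in both, and on scaled counts it was 1.22-fold higher in replicate 2. The small membrane subunits were mt-Nd3, with 838 and 335 TPM, mt-Nd4l, with 938 and 764 TPM, and mt-Nd6, with 152 and 135 TPM. Though lower in replicate 2 by TPM, mt-Nd4l and mt-Nd6 were 1.04-fold and 1.08-fold higher there on scaled counts. The mRNA of complex III, mt-Cytb, encodes cytochrome b, which holds both quinone sites of that complex, and it had 423 and 435 TPM.

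Ratios between the genes were taken for 11 pairs, and 5 of them, mt-Rnr2 over mt-Rnr1 included, differed by 5% or less between the libraries. The level of mt-Co1 was 9.78-fold that of mt-Cytb in replicate 1 and 9.64-fold in replicate 2. It was 15.8-fold and 15.9-fold that of mt-Nd5, a log2 ratio of 3.99 ± 0.01 (SD, n = 2). The neighbours mt-Nd1 and mt-Nd2 differed by 2.30-fold and 2.26-fold, with mt-Nd1 higher. Farther along, mt-Nd5 stood at 0.620 and 0.605 of mt-Cytb, the next heavy-strand mRNA. The other 6 pairs differed more: mt-Co1 over mt-Nd1 was 5.04-fold and 4.28-fold, mt-Nd4 over mt-Nd5 was 1.66-fold and 1.78-fold, and mt-Co1 over mt-Nd6 was 27.3-fold and 31.0-fold. The least steady was mt-Atp6 over mt-Co3, at 0.128 and 0.318, and both of these have copies. Heavy-strand genes without a near-complete copy, such as mt-Co1, mt-Nd5 and mt-Cytb, thus stood at unequal levels in both pools. Pairs with mt-Nd6 do not bear on this, as it is read from the light strand.

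For ATP synthase, gene length limits what can be read. Its subunit a, which forms part of the proton channel, is encoded by mt-Atp6, with 365 and 508 TPM. The small subunit encoded by mt-Atp8 had 222 and 878 counts. Typical fragments were longer than the whole of this 204-base gene. Its effective length was 0 bases in replicate 1 and 1.3 in replicate 2, and its TPM came out at 0 and 4774. These 2 TPM values cannot be read as levels.

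The same limit decides the order of mt-Nd4l and mt-Nd4, which overlap and are known to stay joined on 1 mature mRNA in mammals, as do mt-Atp8 and mt-Atp6. By TPM, mt-Nd4l stood at 2.15-fold and 1.63-fold mt-Nd4, a log2 ratio of 0.91 ± 0.28 (SD, n = 2). Per annotated length it stood at 0.211 and 0.168 of mt-Nd4, a log2 ratio of -2.41 ± 0.23. The effective length of mt-Nd4l was 23.2 and 24.4 of its 297 bases. Which of the 2 was higher cannot be told from these counts.

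With mt-Atp8 left out, the mean TPM of the 12 other mRNAs spanned 29.1-fold, with 4169 TPM for mt-Co1 and 143 TPM for mt-Nd6. Per annotated length the span was 51.9-fold over the same 12, and 151-fold with mt-Atp8, which was then the lowest of the 13. By mean TPM the order of the 12 was mt-Co1, mt-Co3, mt-Nd1, mt-Nd4l, mt-Co2, mt-Nd3, mt-Nd4, mt-Atp6, mt-Cytb, mt-Nd2, mt-Nd5 and mt-Nd6. Of the 11 neighbouring pairs in this order, 4 had values that did not overlap between libraries: mt-Co1 over mt-Co3, mt-Co3 over mt-Nd1, mt-Nd2 over mt-Nd5, and mt-Nd5 over mt-Nd6. Counts per annotated length with the copies added put mt-Co3, mt-Atp6 and mt-Co2 next after mt-Co1, and then 7 of the 11 neighbouring pairs did not overlap. On both scales mt-Co1 came first of the 12, and mt-Nd6 last.

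The light-strand mRNA mt-Nd6 (chrM:13552-14070, − strand) stood below the median of the heavy-strand mRNAs, and differed from each of them in base composition. Per annotated length its values overlapped between libraries with those of mt-Nd4l, and mt-Atp8 was lower. The gene mt-Nd6 had 2778 and 4580 counts. Its log2 ratio over the median of the 12 heavy-strand mRNAs was -2.05 in replicate 1 and -1.85 in replicate 2, with a mean of -1.95. The 12 include mt-Atp8, whose TPM of 0 and 4774 cannot be read as levels. It was the lowest of the 12 in replicate 1 and the highest in replicate 2. The difference between -2.05 and -1.85 therefore cannot be read as spread between pools. Over heavy-strand mRNAs of at least 500 bases without a nuclear copy, which left only mt-Nd1 and mt-Cytb, the mean ratio was -2.21. The ratio ran from -2.80 to -1.94 over the alternatives, all below 0. Its neighbour mt-Nd5 overlaps it by 14 bases on the other strand and stood 1.73-fold and 1.95-fold higher by TPM, or 3.18-fold and 3.58-fold per annotated length. The libraries were stranded, but whether the counting used strand is not given in the sources used here. Without it, reads of mt-Nd6 and of heavy-strand RNA over the same bases cannot be told apart.

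The strand shows in the letters of the RNA. The first 90 bases of mt-Nd6 (chrM:13981-14070, − strand) hold 17 guanines, in capitals, and those of mt-Nd2 (chrM:3914-4003, + strand) hold 6.
mt-Nd6 first 90 bases: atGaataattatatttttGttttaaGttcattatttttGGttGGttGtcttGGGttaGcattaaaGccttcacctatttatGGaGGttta
mt-Nd2 first 90 bases: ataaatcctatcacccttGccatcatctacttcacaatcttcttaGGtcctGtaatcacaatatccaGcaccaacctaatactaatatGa

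Over its whole length mt-Nd6 was 28.1% guanine and 5.97% cytosine. Of the 12 heavy-strand mRNAs, 12 had more cytosine than guanine, with medians of 26% cytosine and 11.0% guanine. The mRNA lowest in mean TPM, though not per annotated length, where mt-Atp8 was lower, is thus also the one with more guanine than cytosine. The part of composition in its counts was not tested.

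**Figure D2:**
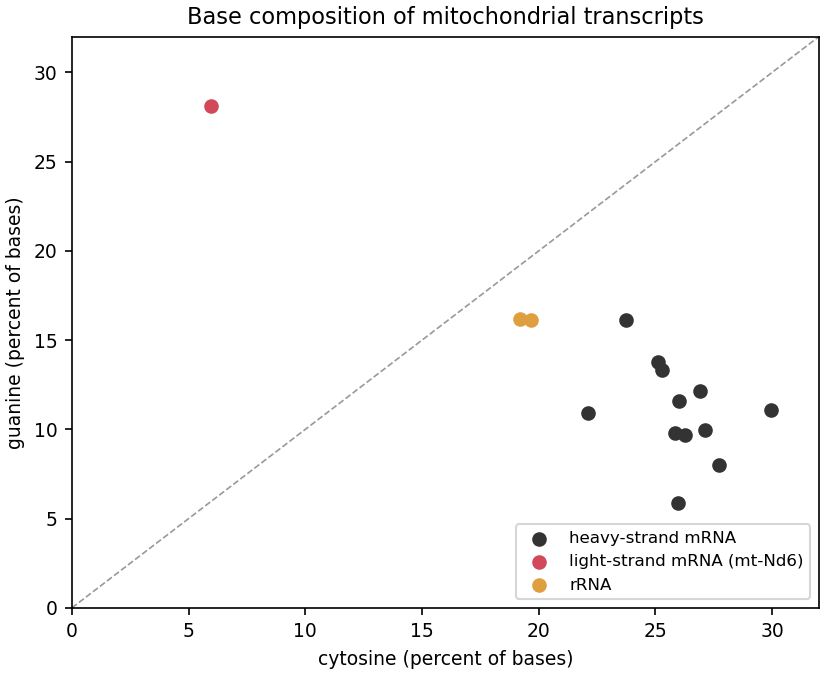
Guanine against cytosine, in percent of the annotated bases, for the 12 heavy-strand mRNAs (black), mt-Nd6 (red) and the 2 rRNAs (orange), with a dashed line where both are equal. At 28.1% guanine and 5.97% cytosine, mt-Nd6 is the one transcript above the line.

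Among the mRNAs, 3 end in a lone T of the stop codon in the annotation, and in mammals such codons are known to be completed by the poly(A) tail added after cleavage. The other 10 end in a complete stop codon. The 3 are shown with the end of mt-Co1, the most abundant mRNA, and the capitals mark the last codon or the part of it that is encoded. They are mt-Co3 (chrM:9363-9390), mt-Nd4 (chrM:11517-11544), mt-Cytb (chrM:15261-15288) and mt-Co1 (chrM:6843-6872), all on the + strand.
mt-Co3 end: tacgtctccatttattgatgaggatctT
mt-Nd4 end: ccaaaactaattacaggcctgacaataT
mt-Cytb end: gaagacaaaatactaaaattatatccaT
mt-Co1 end: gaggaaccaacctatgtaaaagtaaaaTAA

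The 3 mRNAs with a lone T ranged from 423 to 2845 TPM and so stood neither above nor below the rest as a set.

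Nuclear chromosomes carry insertions of mitochondrial DNA, and reads that fit both places must be divided between them. Of the 13 mRNAs, 9 had at least 1 annotated nuclear copy with 95% identity over 100 bases or more, and mt-Nd1, mt-Cytb, mt-Nd6 and mt-Atp8 had none. Of 11 copies, 7 lie side by side on the − strand at chr1:24611535-24616197, a stretch of 4663 bases, and 5 of these 7 are identical to the mitochondrial gene over the aligned bases. The 7 held 61450 counts in replicate 1 and 292129 in replicate 2, or 0.132% and 0.401% of all counts. The other 4 copies, on chromosomes 2 and 13, held 3.0 and 6.01 counts together. Counts on copies were thus nearly all on the most similar ones, and took a larger share of replicate 2.

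The division differed by gene and by library. For mt-Atp6, its copy Gm10925 had 33342 and 84133 counts, and took 74.8% and 74.4% of the 2 genes' sum. For mt-Co2, its copy Gm28661 had 15720 and 83807 counts, or 34.9% and 79.0% of the sum. For mt-Co3, Gm28437 had 11718 and 114495 counts, or 9.63% and 50.1%. By the authors' posterior means, their other estimate of the counts, the copy shares were 61.4% and 62.7% for mt-Atp6, 33.5% and 68.5% for mt-Co2, and 25.1% and 51.3% for mt-Co3. By both estimates the copy share was steady for mt-Atp6 and larger in replicate 2 for mt-Co2 and mt-Co3. For mt-Nd3, which differs from its copy at 1 base near its start as shown above, Gm28438 had 249 and 8480 counts, or 5.36% and 72.3%. For mt-Nd4l, Gm10222 had 390 and 1053 counts, or 18.9% and 28.5%. These 5 copies match nearly the whole of their genes.

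Where the copy covers only part of the gene, it took few counts. The copy Gm29216 covers the end of mt-Co1 and had 31.4 and 135 counts. The copy Gm28439 is identical to the first 876 of 1378 bases of mt-Nd4 and had 0 and 26.4 counts. Partial cover was not the only such case. The less similar copies on chromosome 2 of mt-Co1 and mt-Co2 align to the whole gene. The copy of mt-Co1 had 3 and 4 counts, and that of mt-Co2 had 0 and 2.01. The authors' posterior SD of the count, a measure of how uncertain the division is, was 34.8% and 35.4% of the mean for mt-Atp6, 17.7% and 34.6% for mt-Co2, and 11.9% and 31.0% for mt-Co3. It was 0 for the 4 mRNAs without a copy. From these counts, RNA of mitochondrial DNA and RNA of an identical nuclear copy cannot be told apart.

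**Figure D3:**
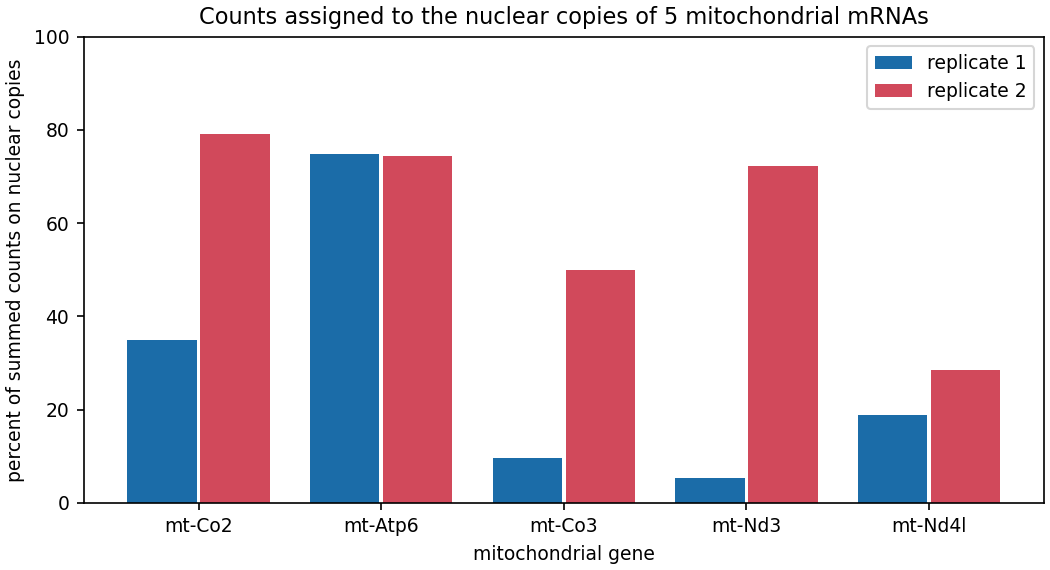
Percent of the summed counts of a mitochondrial mRNA and its nuclear copies that was assigned to the copies, for the 5 mRNAs with more than 1% there, in replicate 1 (blue) and replicate 2 (red). The share is near 75% in both libraries for mt-Atp6, and is far larger in replicate 2 for mt-Co2, mt-Co3 and mt-Nd3.

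With the copies added to their genes, the libraries came closer for mt-Co3, and replicate 2 became the higher for mt-Co2 and mt-Nd3. The sum for mt-Co3 was 3149 and 3203 TPM, and that for mt-Co2 was 1456 and 1862 TPM. For mt-Atp6 it was 1457 and 1999 TPM, for mt-Nd3 888 and 1249 TPM, and for mt-Nd4l 1178 and 1094 TPM. On this sum mt-Atp6 stood well above mt-Cytb in both libraries, while alone it overlapped with it.

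The pools were compared as the log2 ratio of replicate 2 over replicate 1, on counts scaled by the trimmed mean of M values (TMM). The median of all genes on this scale was 0.00, and the median of their absolute log2 ratios was 0.28. The median of the 13 mRNAs was 0.30, with a range of -1.04 to 1.38, and 10 of 13 were above 0. With copies added the median was 0.39, with a range of 0.12 to 1.38, and 13 of 13 were above 0. The same counts of 10 and 13 came from each of the other 4 scalings. The mRNA median of 0.30 alone was thus near the size of a typical gene's ratio in either direction. All mRNAs but mt-Nd6 are read from the heavy strand, so the 13 are not separate observations. The rRNAs stood at 0.13 for mt-Rnr2 and 0.06 for mt-Rnr1. The 71 nuclear subunits of the same complexes had a median of 0.12. The marker values of choroid plexus, hindbrain, blood and muscle given above also stood higher in replicate 2, and their part in the mitochondrial ratios was not tested.

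Past 2-fold, 1 of 15 mitochondrial genes was higher in replicate 2 (mt-Atp8), where 9.20% of the 18547 genes tested were. The counts of mt-Atp8, 222 and 878, came from an effective length of 0 and 1.3 bases. The part of fragment length in its ratio was not tested. Lower in replicate 2 past 2-fold were 2 of 15 (mt-Co2 and mt-Nd3), where 7.76% of all genes were. These shares are near the background. With copies added, 1 of 15 was higher (mt-Atp8), against 9.18% of genes, and 0 of 15 were lower, against 7.75% of genes, as mt-Co2 moved to 0.63 and mt-Nd3 to 0.73. By the authors' posterior means, none was lower past 2-fold, with mt-Co2 at -0.45 and mt-Nd3 at -0.94. Alone and by estimated counts, mt-Co2 lay at -1.001, at the threshold, and was under it by spike-in scaling and without the filter on low counts. Of the mRNAs without a copy, mt-Nd1 lay at 0.54, mt-Cytb at 0.32 and mt-Nd6 at 0.12.

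**Figure D4:**
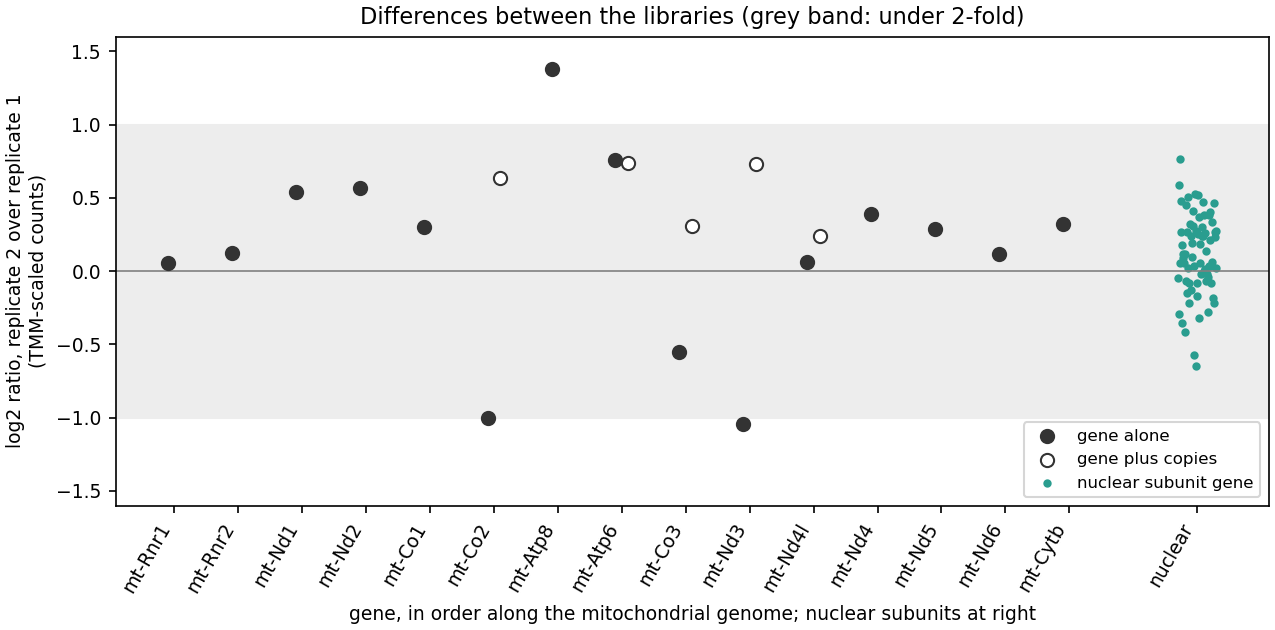
Log2 ratio of replicate 2 over replicate 1 on TMM-scaled counts, for each mitochondrial gene alone (black) and with its nuclear copies (open), and for the 71 nuclear subunits (green); the grey band holds ratios under 2-fold. Alone, mt-Co2 and mt-Nd3 lie at its lower edge, and with their copies at 0.63 and 0.73.

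By medians that count mt-Atp8, mitochondrial mRNAs stood about 10-fold above the nuclear mRNAs for the same complexes. The 13 had a median of 436 TPM in replicate 1 and 469 TPM in replicate 2, against 47.8 and 42.4 TPM for the 71 nuclear subunits, all of which were detected. The log2 ratio of the medians was 3.33 ± 0.20 (SD, n = 2), and 4.39 with the copies added. The 13 include mt-Atp8, whose TPM of 0 and 4774 cannot be read as levels. It was the lowest of them in replicate 1 and the highest in replicate 2. Per annotated length, where mt-Atp8 was the lowest in both libraries, the log2 ratio was 3.41. The difference between the libraries in the TPM ratio, and its SD, therefore cannot be read as spread between pools. For all complexes together, no ratio to the nuclear subunits was taken with mt-Atp8 left out. The ratios of complexes I, III and IV, given below, do not contain it. Of the 71 nuclear subunits, 0 differed past 2-fold between the libraries, where 9.20% of all genes were higher in replicate 2 and 7.76% lower. Those shares are over genes with as few as 10 counts in sum. The subunit with the fewest counts, Atp5k, had 129 and 238, so the 2 sets are not alike in level.

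By medians, the gap was seen in each complex. In complex I, the mitochondrial median of 436 and 435 TPM stood against 31.4 and 26.7 TPM for 36 nuclear subunits, a log2 ratio of 3.90 ± 0.16 (SD, n = 2). All but mt-Nd6 exceeded the highest nuclear subunit, Ndufa3, at 170 and 139 TPM. Ndufb5 followed with 119 and 81.1 TPM and Ndufb8 with 82.5 and 103 TPM, all of them accessory subunits. In complex IV, the mitochondrial median of 2845 and 1598 TPM stood against 99.8 and 82.8 TPM for 11 nuclear subunits. The log2 ratio was 4.55 ± 0.40, or 5.12 ± 0.21 with the copies. All 3 mitochondrial mRNAs exceeded every nuclear subunit, led by Cox8a at 241 and 275 TPM, Cox6a1 at 254 and 246 TPM and Cox7c at 135 and 146 TPM, which are small structural subunits.

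In complex III, mt-Cytb at 423 and 435 TPM stood above all 9 nuclear subunits, a log2 ratio of 3.16 ± 0.14 over their median of 50.5 and 45.3 TPM. The highest of these were Uqcrc1, a core subunit, at 86.8 and 83.6 TPM, Uqcr10 at 62.8 and 74.0 TPM and Uqcr11 at 63.0 and 69.6 TPM. In complex V, where mt-Atp8 has no usable TPM, mt-Atp6 alone at 365 and 508 TPM stood above the nuclear median of 58.3 and 58.0 TPM. It stood under nuclear Atp5b, for the catalytic subunit beta, at 852 and 1122 TPM. With its copy, mt-Atp6 stood above Atp5b, at 1457 and 1999 TPM. Atp5a1, the alpha subunit, had 231 and 204 TPM, and Atp5o had 120 and 114 TPM.

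**Figure D5:**
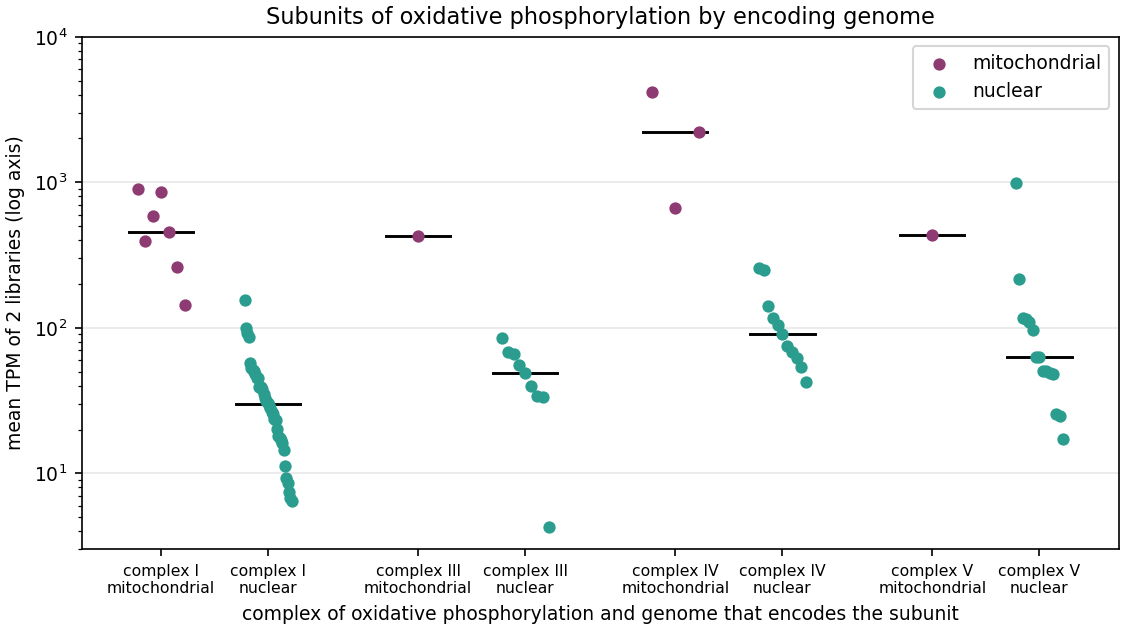
Mean TPM of the 2 libraries on a log axis for mitochondrial (purple) and nuclear (green) subunits of complexes I, III, IV and V, each point a gene without its copies, lines at the medians, mt-Atp8 left out. Mitochondrial mRNAs lie above the nuclear ones in complexes III and IV, all but mt-Nd6 do so in complex I, and in complex V Atp5b lies above mt-Atp6.

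The nuclear genes that make and process mitochondrial RNA had list medians of a few TPM. Only Fastk and Gars passed 30 TPM, each in 1 library. Of 9 genes for mitochondrial transcription, 7 were detected, with a median of 2.82 ± 0.318 TPM (SD, n = 2). Polrmt, the mitochondrial RNA polymerase, had 8.95 and 7.90 TPM. Mterf3 had 13.2 and 5.19 TPM and Mterf4 6.90 and 6.49 TPM, both of a family that acts on mitochondrial transcription and ribosome assembly. The family member Mterf1b was below 1 TPM in both, at 0.26 and 0.18. Of 8 genes that maintain mitochondrial DNA, 5 were detected, led by the DNA polymerase subunit Polg at 15.3 and 10.4 TPM, the topoisomerase Top1mt at 3.38 and 3.47 TPM and the single-strand binding protein Ssbp1 at 3.69 and 2.39 TPM. The exonuclease Mgme1 had 0.93 and 0.79 TPM. The median of these 8 was the lowest of the 6 lists, at 1.46 ± 0.495 TPM.

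All 8 genes of transcript cleavage were detected, with a median of 6.17 ± 0.636 TPM. Hsd17b10, part of the mitochondrial RNase P that cuts at the 5′ ends of tRNAs, had 10.9 and 11.5 TPM, Ptcd2 10.6 and 7.80 TPM, and Tbrg4 7.48 and 8.53 TPM. All 11 genes of RNA stability and decay were detected, with a median of 5.6 ± 1.02 TPM. Fastk, whose mitochondrial form is needed for mt-Nd6 mRNA, led with 29.7 and 31.9 TPM. Lrpprc, which stabilises heavy-strand mRNAs, had 14.5 and 9.81 TPM, and Grsf1, a protein of mitochondrial RNA granules, had 12.9 and 10.6 TPM.

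All 7 genes of rRNA methylation were detected, with a median of 2.15 ± 0.247 TPM. Mrm1 had 3.03 and 2.83 TPM, Mrm3 3.25 and 2.49 TPM and Mrm2 2.11 and 2.78 TPM, all methyltransferases of the large rRNA. Of 19 tRNA synthetases that act in mitochondria, 18 were detected, with a median of 4.0 ± 0.750 TPM. Gars at 33.5 and 24.7 TPM and Kars at 19.0 and 19.5 TPM also serve the cytosol, and Vars2, at 9.25 and 9.05 TPM, serves mitochondria. Lower past 2-fold in replicate 2 was 1 of the 19 synthetases, the leucine enzyme Lars2, at 5.84 and 1.57 TPM, which was named after its values were seen. The rest of the 6 lists had no gene past 2-fold in either direction. Over all genes tested, 7.76% were lower and 9.20% higher, so the number for these lists does not exceed the background.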

How the data were processed

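Total RNA of 2 P0 midbrain libraries was analysed from the authors' gene tables. Per the notes that accompany the files, genes were quantified by the authors from transcriptome alignments, on mm10 and GENCODE M4. The sources used here name no aligner or program. The authors deposited estimated counts (expected counts), in which reads matching more than 1 gene are shared out, with posterior means and SDs. The deposited TPM and FPKM values divide by an effective length, which was shorter than the gene by a median of 280.2 and 280.3 bases (long genes, 1 kilobase or more effective). Each table held 69691 rows, 43346 of them Ensembl genes. Symbols, coordinates and transcripts came from GENCODE M21 (GRCm38), which matched 42462 identifiers.

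Copies were found with blastn 2.17.0 (plus strand, at least 95% identity over 100 bases, E value 1e-05). Libraries were scaled with edgeR 4.0.16 (TMM) on rounded estimated counts of genes with 10 or more counts in sum, with a prior of 0.5 counts in ratios. The scaling was checked on simulated data. Log2 ratios of TPM within a library added 0.1 to each value. Detected means at least 1 TPM in both libraries. Alternatives were DESeq2 1.42.0 size factors, total counts, spike-ins, no filter, FPKM, a pseudocount of 1, posterior means, annotated lengths and summed copies. Limits on zeros hold for counting error alone: without molecular identifiers, several reads may stem from 1 molecule.

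The members, the gene lists and the rules were chosen with earlier results of these data known. Named were all mitochondrial mRNAs and rRNAs, copies with at least 100 counts, and of each nuclear list the 3 with the highest mean TPM and those below 1 TPM in both libraries; the tissue markers, Gm28439 and Lars2 were picked more freely. One listed subunit of complex I (of 37) was not matched. The replicate numbers name the libraries and pair nothing.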

Additional observations from a re-analysis of the deposited data

How the results depend on the processing

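The mitochondrial share of counts was 14.4%, and 1.87% with both rRNAs left out, an alternative added after seeing the data. The share of TPM was 7.35%, against 17.4% with counts per annotated length and 25.8% with genes under 400 bases left out of the total. The log2 ratio of mt-Rnr2 over the mRNA median was 6.77, against 7.19 per annotated length, 5.71 with copies added and 6.97 with both changes. That of mt-Nd6 over the heavy-strand median was -1.95, against -2.18 per annotated length, -2.80 with copies, -2.38 with both and -2.21 over mRNAs of at least 500 bases without a copy. The log2 ratio of mitochondrial over nuclear subunits was 3.33, against 4.39 with copies and 3.62 with copies per annotated length. The mRNA medians in these ratios counted mt-Atp8, except that over mRNAs of at least 500 bases without a copy. The combined changes were added after seeing the data. The ratio of mt-Nd4l over mt-Nd4, examined after seeing the data, turned from 0.91 to -2.41 per annotated length and -2.01 with copies as well. Its short effective length is what the 2 scales treat differently.

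The between-library median of the mRNAs was 0.30, against 0.39 with copies, 0.27 by total counts and 0.31 by spike-ins. The number past 2-fold was 3, against 1 with copies, 1 by the authors' posterior means (added after seeing the data), and 2 by spike-ins or without the count filter, where mt-Co2 dropped out. FPKM and a pseudocount of 1 left the within-library ratios inside the spread between libraries, and DESeq2 size factors left the number past 2-fold at 3. In single libraries the share of counts ran from 13.9% to 14.8%, that of TPM from 7.14% to 7.56%, the mt-Rnr2 ratio from 6.64 to 6.90, the mt-Nd6 ratio from -2.05 to -1.85 and the mitochondrial over nuclear ratio from 3.19 to 3.46. The ranges of the mt-Rnr2, mt-Nd6 and mitochondrial over nuclear ratios counted mt-Atp8. Among the mRNAs its TPM was the lowest in replicate 1 and the highest in replicate 2. These ranges therefore do not measure how far the pools agree. Ratios between the libraries need both libraries, so neither could be left out there. No paired analysis was possible because the labels define 1 group. With 2 pools the SDs are rough, and gene length, not depth, limits mt-Atp8 and the tRNAs.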
